A study of Mus musculus with 7 samples.

Results

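The genes described here are 38 genes of astrocyte identity and homeostasis, taken by name from a table of 22880 genes measured in the mouse optic nerve. All 38 were in the table, and all 38 were among the 13866 genes that passed the minimum level and were tested. Optic nerves were collected at postnatal day 14 (P14) from 4 control mice (FASN lox/lox) and 3 mutant mice (olig2cre FASN lox/lox), and both nerves of 1 mouse made 1 sample. As given for these samples, all 7 mice carried the floxed allele of Fasn, the gene of fatty acid synthase, on both chromosomes and had a C57Bl/6 background. The study's methods allow lox/wt as well as lox/lox controls in its developmental work. They describe the floxed line as of mixed origin and later backcrossed to C57BL/6. Only the mutants carried Cre recombinase driven by the Olig2 promoter, so effects of Cre itself and of Fasn loss cannot be told apart. Olig2 marks the oligodendrocyte (OL) lineage, and some astrocytes also come from precursors that make Olig2. Recombination within astrocytes was not measured here.

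Astrocytes are the glial cells that surround synapses, nodes and vessels. They take up glutamate and other transmitters, recycle glutamate as glutamine, buffer potassium and move water, supply lipids and antioxidants, and bind zinc and copper with metallothioneins. In the optic nerve, a white matter tract, they share the tissue with OLs and their progenitor cells (OPCs), microglia, vessels, meninges and the axons of retinal neurons. The question put to the data was whether the RNA of astrocyte genes differed when Fasn was removed from the OL lineage beside them. Each sample is RNA of the whole nerve, so fewer cells of a type and less RNA per cell cannot be told apart.

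Levels are given as FPKM, a read level corrected for library size and transcript length, which allows levels to be compared between genes. Differences are log2 fold changes of FPKM + 0.5, mutant minus control, tested with limma-trend across all tested genes, and a gene was called when its adjusted p was under 0.05. Between 27452222 and 43462575 reads lay behind each sample, and the member with the fewest reads in every sample, Slc7a10, had 137 to 367. Fasn itself fell from 205 ± 25.1 FPKM (SD, n = 4) in controls to 56.3 ± 11.3 (SD, n = 3) in mutants, or 27.5% of the control level (log2 fold change -1.86, adjusted p = 0.00312 with limma-trend). No gene of the marker lists of other cell types was at 0 in any sample. Summed over 15 OL markers the level was 62773 to 70557 FPKM in controls and 46218 to 59518 in mutants, and over 11 neuronal markers it was 55.0 to 75.8 and 67.7 to 104.9 FPKM.

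Of the 38 astrocyte genes, 7 were higher in mutants and 0 were lower, and 31 were not called. The 7 were Fam107a, S1pr1, Aldh1l1, Cbs, Slc1a2, F3 and Pla2g7, and their mean FPKM in mutants was 1.44 to 1.71 times that in controls. Among all tested genes, 1.26% were called higher and 1.36% lower, and 2.62% in either direction. The log2 fold change was above 0 for 37 of the 38 genes, against 60.1% of all tested genes, and its median was 0.45, against 0.05 over all tested genes. The count above 0 was 36 with median-of-ratios scaling, where Tril also turned, and 35 with normalized counts, where Ttyh1 and Tril also turned. For 24 of the 38 genes every mutant sample lay above every control sample, which was so for 12.9% of all tested genes. For 0 of the 38 genes every mutant lay below every control, which held for 8.26% of all. At an unadjusted p under 0.05, 26 were higher and 0 lower, against 15.9% and 8.5% of all tested genes. An exact two-sided permutation test of 1 gene cannot give a p below 0.0571 with 4 samples against 3, so single genes rest on the fit across all genes.

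The samples of the 2 genotypes carry the same numbers 1 to 3, but the labels do not say what a number stands for. Whether equal numbers mark pairs was not established. With the number as a replicate block 21 of the 38 genes were called higher and 0 lower, with all 7 among them. In that fit 6.42% of all tested genes were called higher and 1.94% lower. Control 4 has no mutant of the same number, so the block fit gives it no weight in the difference between genotypes. Log2 fold changes with the block are therefore those without control 4, with a median of 0.49 over the 38 genes. Control 4 was the highest control in 16 of the 38 genes. The number of calls also depended on single mice. Without control 2, control 3 or mutant 3, 0 of the 38 genes were called by limma-trend, when 15, 6 and 6 genes were called in all. Without control 1 and control 4 the calls were 1 and 4 of 38, when 60 and 117 genes were called in all. Without mutant 1 or mutant 2 they were 12 each, 6 of the 7 among them both times, when 186 and 907 genes were called in all. The median log2 fold change of the 38 genes stayed between 0.40 and 0.52 whichever sample was left out.

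**Figure D1:**
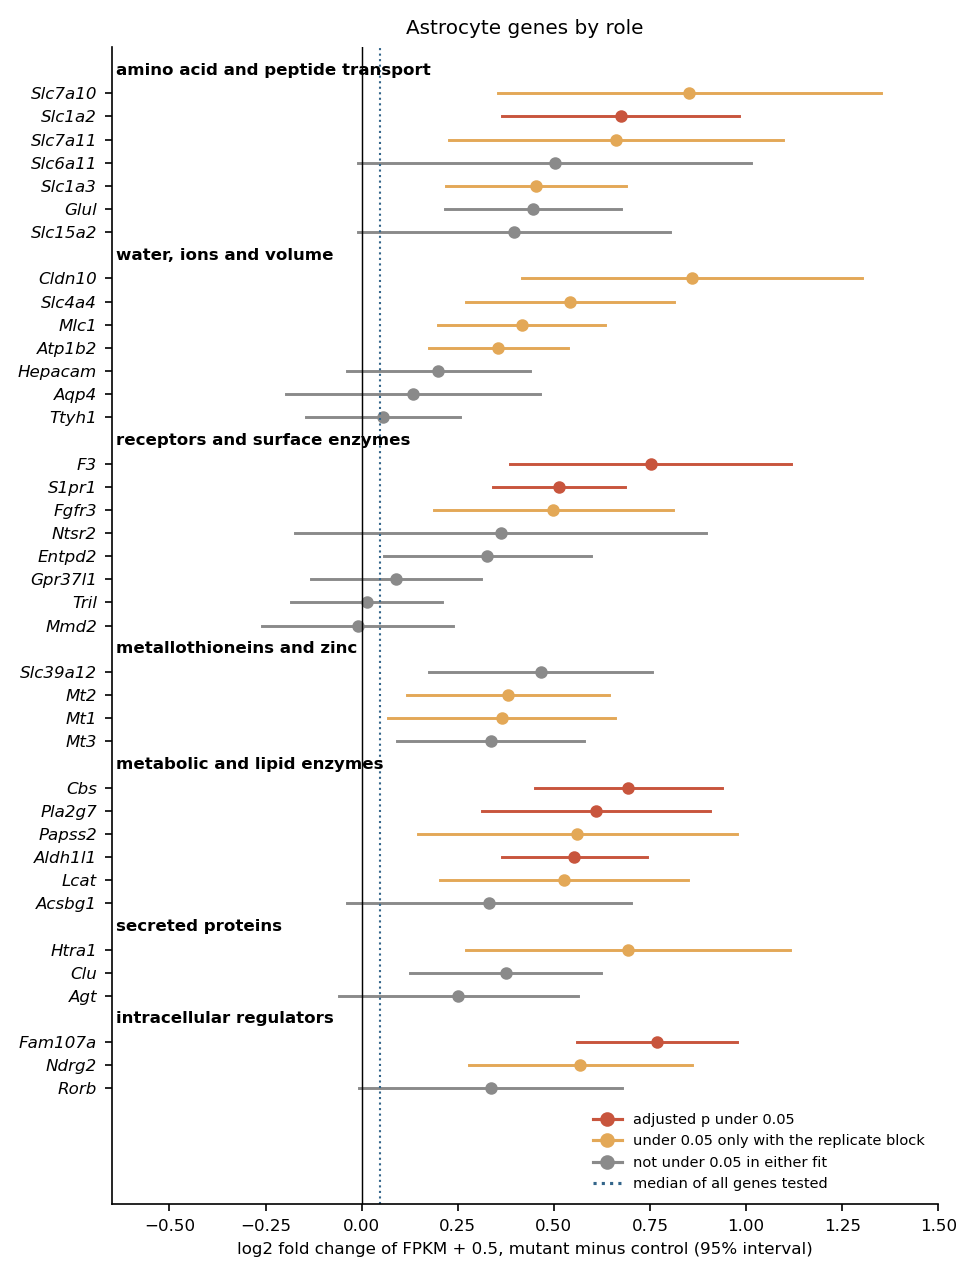
Log2 fold change of FPKM + 0.5, mutant minus control, of the 38 astrocyte genes grouped by role on the y axis, with 95% intervals from limma-trend over 4 control and 3 mutant samples and the median of all tested genes as a dotted line. The points lie right of 0 for every gene but Mmd2 (Ttyh1 and Tril also fall below 0 with normalized counts), and the 7 called genes run from 0.51 for S1pr1 to 0.77 for Fam107a.

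The first group takes up, converts or carries amino acids and peptides. Of its 7 genes 1 was called, all 7 had a log2 fold change above 0, and their median was 0.50. Slc1a2 (ENSMUSG00000005089, chromosome 2, 102658659 to 102790784, + strand, GRCm38) encodes GLT-1, the glutamate transporter that clears most glutamate in the brain. Its level was 577, 467, 471 and 558 FPKM in controls 1 to 4 and 663, 960.1 and 876 in mutants 1 to 3. Every mutant lay above every control, with mutant 1 closest to them. The means were 518 ± 57.2 (SD, n = 4) and 833 ± 153 (SD, n = 3), a log2 fold change of 0.67 (SE 0.136, adjusted p = 0.0437 with limma-trend). The call was lost without any 1 of the 4 controls (0.0693 to 0.133), without mutant 3 (0.122), with no filter on low values (0.105) and with each of 3 other scalings of the values (0.0566 to 0.0738). Slc1a2 overlaps the antisense gene Gm13872.

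Slc1a3, the other main glial glutamate transporter (GLAST), was at 333, 316, 297 and 350.2 FPKM in controls and 381, 509 and 448 in mutants. The groups did not overlap, and the log2 fold change of 0.45 missed the threshold (SE 0.103, adjusted p = 0.0571, and 0.0429 with the replicate block, limma-trend). Glul, glutamine synthetase, makes glutamine from the glutamate taken up. It had the highest level of the 38 genes, at 1485, 1260, 1543 and 1392 FPKM in controls and 2114, 1874 and 1814 in mutants, again without overlap. Its log2 fold change was 0.45 (SE 0.101, adjusted p = 0.0562, and 0.0625 with the block, limma-trend). Glul is made by mature OLs too, and it overlaps Teddm2 on the opposite strand. The study, which tested these samples with edgeR, reported Glul as increased in mutants, among transcripts enriched in mature OLs. In the fit used here the gene was not called. It passed in 2 of 15 alternatives, with a minimum of 2 FPKM (adjusted p = 0.0468) and without mutant 2 (adjusted p = 0.0488, limma-trend).

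Slc7a10 encodes Asc-1, which carries small neutral amino acids such as serine and glycine. It was at 3.92, 4.35, 5.20 and 4.30 FPKM in controls and 6.32, 7.05 and 13.1 in mutants, with mutant 3 far above the other mutants. The means of 4.44 ± 0.539 (SD, n = 4) and 8.83 ± 3.74 (SD, n = 3) differed by 1.99 times, the widest ratio of the 38 genes, and the adjusted p was 0.0726 (limma-trend) and 0.0265 with the replicate block. Slc7a10 overlaps Lrp3 on the opposite strand. Slc7a11, the cystine-glutamate exchanger that feeds glutathione synthesis, had the opposite order of mutants, with 86.7 FPKM in mutant 1, 49.7 in mutant 2 and 62.5 in mutant 3 against 32.1 to 49.3 in controls. Its log2 fold change was 0.66 with an adjusted p of 0.0933 (limma-trend) and 0.0186 with the block. The GABA transporter Slc6a11 (GAT-3) and the peptide transporter Slc15a2 had log2 fold changes of 0.50 and 0.40 and adjusted p of 0.210 and 0.213 (limma-trend). Slc6a11 was at 38.2 to 46.4 FPKM in controls and at 43.2, 49.4 and 93.4 in mutants, and without mutant 3 its log2 fold change was 0.17.

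The second group keeps water, ions and cell volume in balance. Of its 7 genes 0 were called with limma-trend, 4 had an unadjusted p under 0.05, and 4 passed with the replicate block, while all 7 had a log2 fold change above 0 with a median of 0.36. Atp1b2, a glial subunit of the sodium-potassium pump, was at 503, 508, 477 and 563 FPKM in controls and 609.8, 693 and 664 in mutants. The groups were apart, and the log2 fold change was 0.36 (SE 0.0802, adjusted p = 0.0559, and 0.0404 with the block, limma-trend). The bicarbonate transporter Slc4a4 and Mlc1, a membrane protein of astrocyte endfeet involved in volume regulation, had log2 fold changes of 0.54 and 0.42 (adjusted p = 0.0528 and 0.0579, and 0.0375 and 0.0293 with the block, limma-trend).

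Cldn10, a claudin, was a gene of low level, at 3.09, 4.17, 3.70 and 3.11 FPKM in controls and 5.49, 5.65 and 9.79 in mutants. All mutants were above all controls, and mutant 3 stood highest. Its log2 fold change of 0.86 was the largest of the 38 genes (SE 0.195, adjusted p = 0.0571, and 0.0369 with the block, limma-trend). Aqp4, the water channel of the endfeet, did not follow. It was at 145, 161, 136 and 134 FPKM in controls and 122, 161 and 198 in mutants, so mutant 1 was the lowest sample of all and mutant 3 the highest. The log2 fold change was 0.13 with a 95% interval of -0.20 to 0.46, and the adjusted p was 0.607 (limma-trend). Hepacam, which holds Mlc1 at cell junctions, and Ttyh1, a channel-like membrane protein, had log2 fold changes of 0.20 and 0.06 (adjusted p = 0.277 and 0.740, limma-trend).

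Among 8 receptors and surface enzymes, 2 were called higher, and the median log2 fold change was 0.34. S1pr1 (ENSMUSG00000045092, chromosome 3, 115710433 to 115715072, - strand) is a receptor for sphingosine-1-phosphate that endothelial cells make as well. It was at 29.98, 30.6, 33.2 and 30.04 FPKM in controls and 40.5, 44.1 and 48.8 in mutants, so the controls lay close together and all mutants above them. The means were 31.0 ± 1.52 (SD, n = 4) and 44.5 ± 4.16 (SD, n = 3), a log2 fold change of 0.51 (SE 0.0760, adjusted p = 0.0214, limma-trend). Beside this value, the summed level of 12 endothelial markers was 447 to 544 FPKM in controls and 611 to 671 in mutants, with 0 of the 12 called by limma-trend, 8 higher at an unadjusted p under 0.05, and 4 called higher with the replicate block. Their part in the S1pr1 value was not tested. The S1pr1 call was lost without control 1, 2 or 3 or mutant 3 (0.0558 to 0.0787) and kept without control 4, mutant 1 or mutant 2.

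F3 (ENSMUSG00000028128, chromosome 3, 121723537 to 121735048, + strand) is tissue factor, the starter of blood clotting, which astrocytes of the brain make. It was at 51.1, 36.1, 47.9 and 45.6 FPKM in controls and 98.9, 67.8 and 64.9 in mutants. No sample overlapped between the groups, and mutant 1 was the highest. The means were 45.2 ± 6.45 (SD, n = 4) and 77.2 ± 18.9 (SD, n = 3), a log2 fold change of 0.75 (SE 0.161, adjusted p = 0.0486, limma-trend), and the call was lost without any 1 sample other than mutant 2 (0.0686 to 0.125), with no filter (0.116) and with FPKM rescaled to one sum per sample (0.0623). Fgfr3, a growth factor receptor, had a log2 fold change of 0.50 (adjusted p = 0.0836, and 0.0235 with the block, limma-trend). The neurotensin receptor Ntsr2 was at 26.9 FPKM in mutant 1 and 63.2 in mutant 3, against 27.0 to 33.7 in controls, and the ATP-degrading enzyme Entpd2 had a log2 fold change of 0.33 (adjusted p = 0.374 and 0.141, limma-trend). For Gpr37l1, an orphan receptor, Tril, an accessory protein of Toll-like receptors, and Mmd2 the log2 fold changes were 0.09, 0.01 and -0.01 (adjusted p = 0.607, 0.946 and 0.966, limma-trend). The interval for Mmd2 ran from -0.26 to 0.24.

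Metallothioneins are small proteins rich in cysteine that bind zinc and copper, and Mt1, Mt2 and Mt3 lie side by side on chromosome 8 in the order Mt3, Mt2, Mt1. Mt1 and Mt2 are induced through metal response elements in their promoters, while Mt3 is the form enriched in brain. Because the neighbours are read together below, the 250 bases before the RefSeq start of each are shown (RefSeq, GRCm38.p6, + strand, 5′ to 3′) with the core of a metal response element, TGCACNC or TGCGCNC on either strand, in capitals.
Mt1: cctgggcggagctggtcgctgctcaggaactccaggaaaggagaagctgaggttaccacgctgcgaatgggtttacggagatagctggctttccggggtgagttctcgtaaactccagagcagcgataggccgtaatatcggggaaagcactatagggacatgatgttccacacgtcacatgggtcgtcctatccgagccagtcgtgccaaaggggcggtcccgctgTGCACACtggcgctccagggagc
Mt2: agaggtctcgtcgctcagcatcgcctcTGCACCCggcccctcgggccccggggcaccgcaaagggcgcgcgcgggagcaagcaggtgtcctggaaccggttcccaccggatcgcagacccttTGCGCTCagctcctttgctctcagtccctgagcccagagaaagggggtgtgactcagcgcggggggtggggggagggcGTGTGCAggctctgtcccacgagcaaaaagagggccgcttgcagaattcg
Mt3: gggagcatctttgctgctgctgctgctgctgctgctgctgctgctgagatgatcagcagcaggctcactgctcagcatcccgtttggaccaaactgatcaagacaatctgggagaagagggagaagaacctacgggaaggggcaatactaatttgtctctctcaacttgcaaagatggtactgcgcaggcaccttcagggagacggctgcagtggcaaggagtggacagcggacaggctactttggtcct
The windows are chr8:94178839-94179088 for Mt1, chr8:94172368-94172617 for Mt2 and chr8:94152357-94152606 for Mt3. Mt1 had 1 match, Mt2 had 3, of which the one nearest the start is on the minus strand, and Mt3 had 0. Of 32817 promoter windows of this length in the RefSeq table, 21.4% held at least 1 match and 1.26% at least 3. Promoters of 34 of the 38 genes were matched by symbol, and 11 of the 34 held a match in at least 1 window. Counted by window, as the 21.4% is, 13 of their 43 windows held a match (30.2%). Bases after the annotated start were not searched, and whether these starts, that of Mt1 above all, are the ones mainly used in the nerve was not checked, so elements nearer another start would not be counted. A match is a match of letters only.

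In level, Mt1 and Mt2 stood above Mt3 in every sample. Mt1 was at 494, 573, 533 and 727 FPKM in controls and 719, 819 and 691 in mutants, and control 4 lay among the mutants. Mt2 was at 422, 482, 483 and 557 FPKM in controls and 561, 731 and 608 in mutants, where the lowest mutant lay just above the highest control. Mt3, with 0 matches, was at 139, 172, 138 and 153 FPKM in controls and 163, 197 and 210.1 in mutants, with control 2 above mutant 1. The log2 fold changes were alike, at 0.36 (SE 0.130), 0.38 (SE 0.116) and 0.34 (SE 0.107), and 0 of the 3 were called, although all 3 had an unadjusted p under 0.05 (adjusted p = 0.139, 0.102 and 0.111, limma-trend). With the replicate block the adjusted p were 0.0293, 0.0350 and 0.0752 (limma-trend), so Mt1 and Mt2 passed. That fit gives no weight to control 4, the highest control for both genes. With genotype alone neither gene passed with any 1 sample left out. The zinc transporter Slc39a12 had a log2 fold change of 0.47 (adjusted p = 0.0836, limma-trend). Mt2 overlaps the antisense gene Gm45774.

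The 6 metabolic and lipid enzymes held 3 of the 7 calls and had a median log2 fold change of 0.56. Aldh1l1 (ENSMUSG00000030088, chromosome 6, 90550789 to 90600203, + strand), a folate enzyme used as a general astrocyte marker, was at 31.9, 29.4, 33.2 and 32.7 FPKM in controls and 41.2, 50.4 and 49.6 in mutants. The controls lay within a narrow band and all mutants above it, with means of 31.8 ± 1.67 (SD, n = 4) and 47.1 ± 5.06 (SD, n = 3). The log2 fold change was 0.55 (SE 0.0834, adjusted p = 0.0214, limma-trend). Cbs (ENSMUSG00000024039, chromosome 17, 31612623 to 31637199, - strand), cystathionine beta-synthase, takes homocysteine towards cysteine and is a source of hydrogen sulfide in astrocytes. It was at 15.4, 14.8, 15.7 and 17.9 FPKM in controls and 25.8, 22.6 and 30.4 in mutants, again with no overlap. The means were 16.0 ± 1.38 (SD, n = 4) and 26.2 ± 3.91 (SD, n = 3), a log2 fold change of 0.69 (SE 0.107, adjusted p = 0.0234, limma-trend). Both calls were lost without control 1, 2 or 3 or mutant 3 (0.0562 to 0.0857 for Aldh1l1 and 0.0637 to 0.0961 for Cbs) and kept without control 4, mutant 1 or mutant 2, and both were lost with no filter on low values (0.0540 and 0.0596).

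Pla2g7 (ENSMUSG00000023913, chromosome 17, 43568098 to 43612201, + strand) encodes a secreted phospholipase that degrades platelet-activating factor and oxidized phospholipids. It was at 43.1, 40.9, 44.2 and 36.4 FPKM in controls and 51.6, 61.5 and 78.4 in mutants, where mutant 3 was the highest and mutant 1 the nearest to the controls. The means were 41.2 ± 3.45 (SD, n = 4) and 63.8 ± 13.6 (SD, n = 3), a log2 fold change of 0.61 (SE 0.131, adjusted p = 0.0491, limma-trend). This call, the closest to the threshold, passed without mutant 1 (0.0341) and was lost without any other 1 sample (0.0532 to 0.122), with no filter (0.113) and with 3 other scalings of the values (0.0572 to 0.0705). Papss2, which makes the sulfate donor for sulfated sugars and lipids, and Lcat, which esterifies cholesterol on lipoproteins, had log2 fold changes of 0.56 and 0.53 (adjusted p = 0.117 and 0.0806, and 0.0447 and 0.0458 with the block, limma-trend). The fatty acid activating enzyme Acsbg1 was at 100.5 FPKM in mutant 1 and 179.9 in mutant 3, against 100.0 to 114 in controls (adjusted p = 0.248, limma-trend).

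Of 3 secreted proteins 0 were called by limma-trend, and 2 had an unadjusted p under 0.05. Clu, clusterin, a chaperone and apolipoprotein outside the cell, was at 1036, 893, 948 and 1180 FPKM in controls and 1214, 1415 and 1303 in mutants. The groups did not overlap, with a log2 fold change of 0.37 (SE 0.109, adjusted p = 0.0946, and 0.0577 with the block, limma-trend). Htra1, a secreted protease, was at 48.8, 45.9, 67.4 and 55.1 FPKM in controls and 108, 63.7 and 95.9 in mutants, so that mutant 2 lay below control 3. Its log2 fold change of 0.69 had an adjusted p of 0.0792 (limma-trend) and 0.0309 with the block, and it overlaps Fgfr2, a gene on the opposite strand. Agt, angiotensinogen, had a log2 fold change of 0.25 (adjusted p = 0.293, limma-trend).

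Among 3 genes that act inside the cell, Fam107a (ENSMUSG00000021750, chromosome 14, 8296274 to 8318023, - strand), an actin-associated protein induced by stress hormones, had the smallest adjusted p of the 38 genes. It was at 116, 107, 124 and 118 FPKM in controls and 184, 231 and 184 in mutants, and the lowest mutant was well above the highest control. The means were 116 ± 7.02 (SD, n = 4) and 199.6 ± 26.8 (SD, n = 3), a log2 fold change of 0.77 (SE 0.0919, adjusted p = 0.0148, limma-trend). Its call was lost without control 2, control 3 or mutant 3, at 0.0506, 0.0550 and 0.0589, and was kept without each of the other samples. Ndrg2, a protein of astrocyte shape and growth control, had a log2 fold change of 0.57 (adjusted p = 0.0559, and 0.0302 with the block, limma-trend). Rorb, a nuclear receptor, was the gene of lowest mean level, at 1.796 FPKM over all samples, with a log2 fold change of 0.34 (adjusted p = 0.212, limma-trend).

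**Figure D2:**
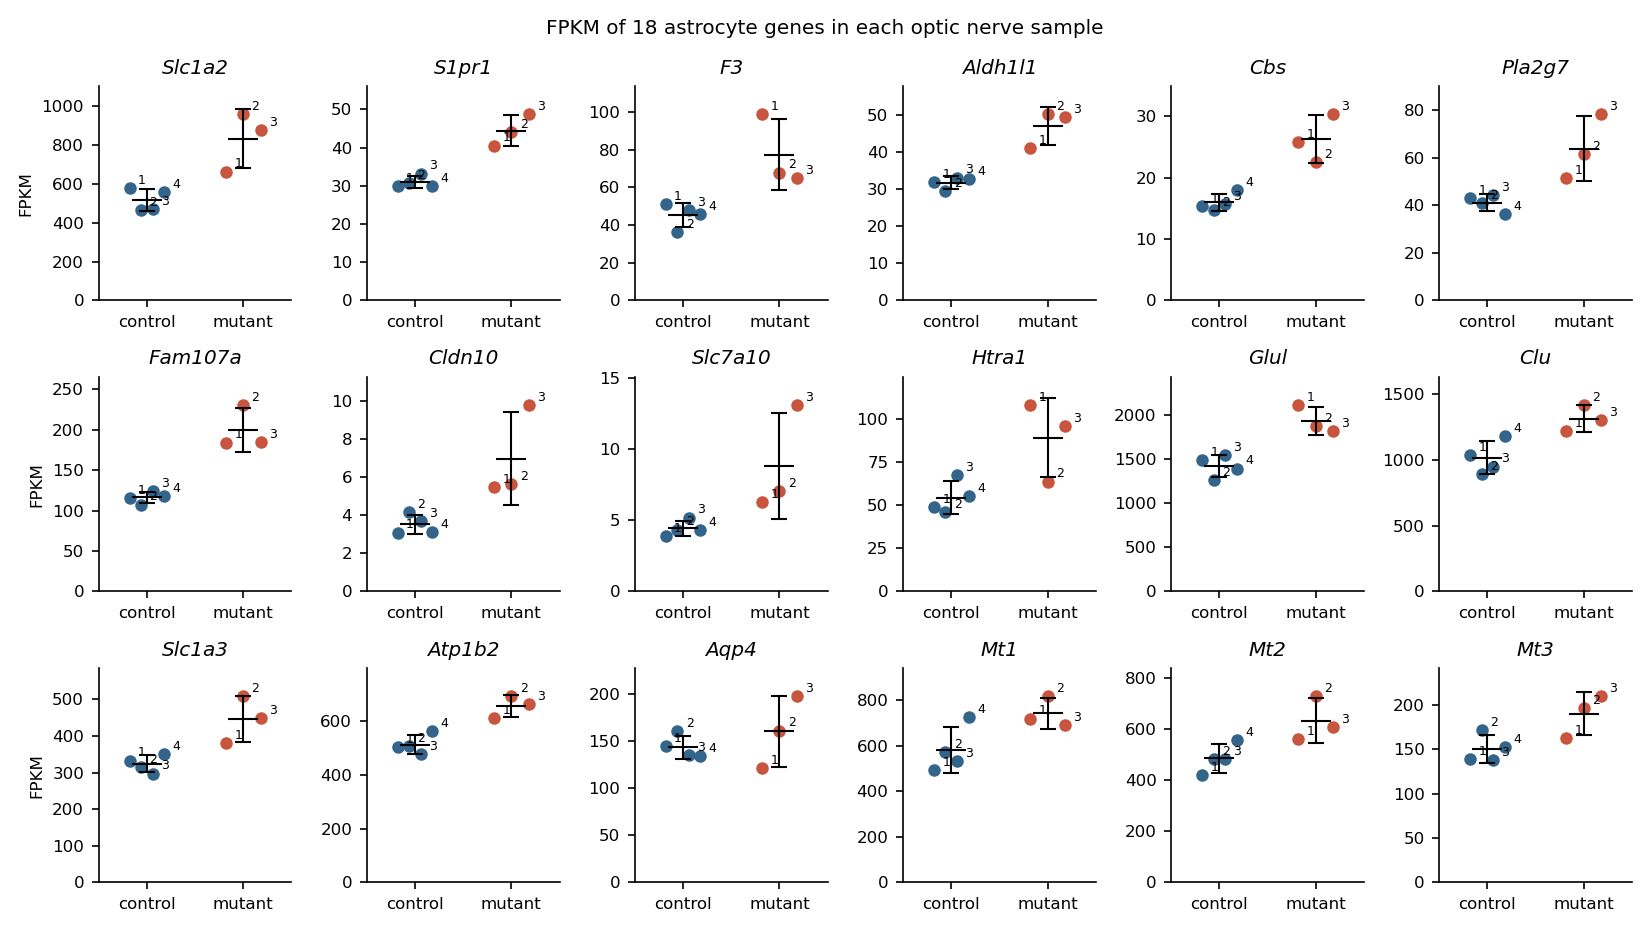
FPKM on the y axis of 18 of the astrocyte genes in controls 1 to 4 and mutants 1 to 3, numbered beside each point, with the group mean and SD as bars. In Fam107a, S1pr1, Aldh1l1 and Cbs the groups stand clear of each other, whereas in Aqp4, Mt1, Mt3 and Htra1 samples of the groups cross.

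The 38 genes spanned a wide range of levels, with 18 at a mean of 100 FPKM or more, 16 from 10 to 100 and 4 under 10. The summed FPKM of the 38 genes was 6947 to 7980 in controls, and 9089, 10248 and 10046 in mutants 1 to 3. That was 1.26% to 1.51% of all FPKM in controls and 1.69% to 1.92% in mutants. In the same libraries the 15 OL markers, which hold far more reads, summed to 62773 to 70557 FPKM in controls and 46218, 59518 and 48991 in mutants 1 to 3, lower in every mutant than in any control. FPKM is a share of each library, and the part of this shift in the astrocyte values was not tested. With FPKM rescaled by median-of-ratios factors, which are set by the middle of all genes, 5 of the 38 genes were called and 36 had a log2 fold change above 0. By the annotation in the table, 16 of the 38 genes (42.1%) belong to the plasma membrane, against 17.7% of all tested genes, and 5 (13.2%) to the extracellular space, against 4.88%. Besides the overlaps named above, Entpd2 shares bases with the coding gene Npdc1 on the same strand, and Aldh1l1 (Gm15756), Pla2g7 (1700071M16Rik), Lcat (Gm16156), Tril (Gm16499), Slc7a11 (Gm37854), Aqp4 (AC133525.2) and Ttyh1 (9430041J12Rik and D030047H15Rik) with antisense genes, so reads of these genes may be shared.

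The mutant mice differed among themselves. Over the 38 genes, the median deviation from the control mean on the log2(FPKM + 0.5) scale was 0.26 in mutant 1, 0.44 in mutant 2 and 0.58 in mutant 3, and -0.05 to 0.05 in the controls. Over all tested genes it was -0.03 to 0.08 in the 7 samples. In mutants 2 and 3 all 38 genes lay above the control mean, in mutant 1 30 did (78.9%), and in the controls 8 to 25. Of all tested genes 63.5%, 49.2% and 59.8% lay above the control mean in mutants 1 to 3, and 41.3% to 55.3% in the controls. Mutant 1 was the lowest mutant in 31 genes and the highest in 5, which were Glul, Slc7a11, F3, Htra1 and Papss2. Mutant 3 exceeded mutant 1 in 32 genes, by up to 1.22 (log2) for Ntsr2, 1.10 for Slc6a11 and 1.00 for Slc7a10, and it was below mutant 1 by 0.60 for F3 and 0.47 for Slc7a11. Without mutant 3 the log2 fold change came to 0.54 for Slc7a10, 0.35 for Lcat, 0.16 for Rorb, 0.14 for Agt, 0.13 for Acsbg1 and 0.03 for Ntsr2.

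**Figure D3:**
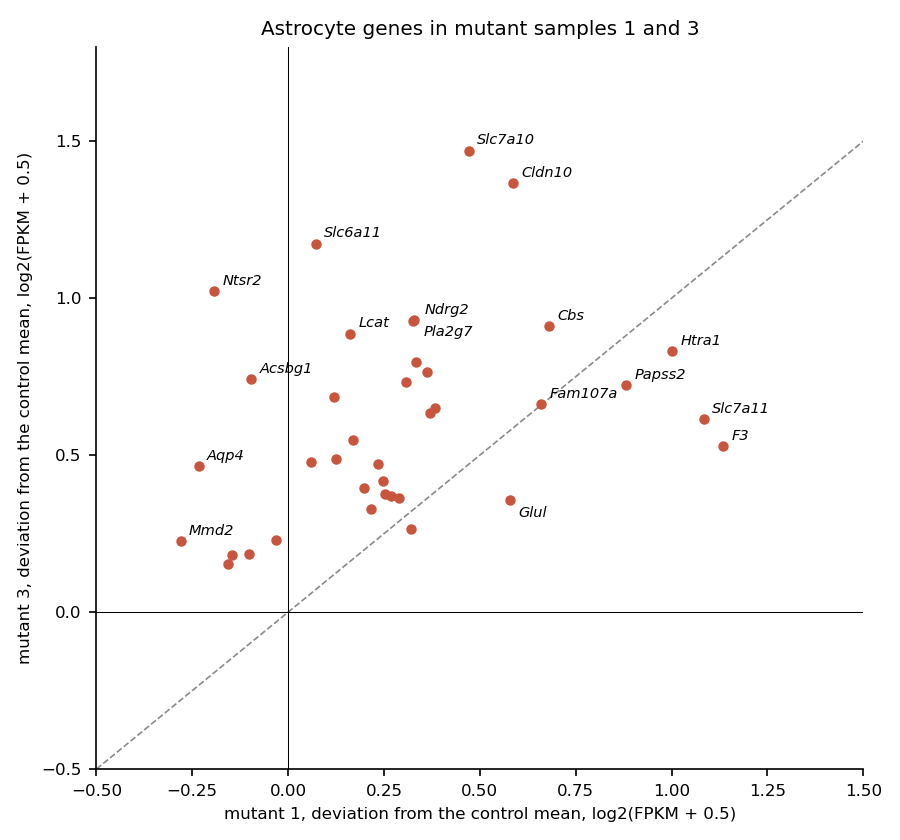
Deviation of each of the 38 astrocyte genes from its control mean, in log2(FPKM + 0.5), in mutant 1 on the x axis and mutant 3 on the y axis, with the dashed line of equal deviation. Of the 38 points, 32 lie above the line, with Ntsr2, Slc6a11 and Slc7a10 farthest from it, and 6 lie below it, among them F3, Slc7a11 and Glul.

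Markers of other cells also set mutants 1 and 3 apart. The 10 markers of meningeal fibroblasts summed to 1966 to 2775 FPKM in controls and 5063, 2641 and 3050 in mutants 1 to 3, with a median deviation of 1.13 in mutant 1. The 11 neuronal markers summed to 70.3, 67.7 and 104.9 FPKM in mutants 1 to 3, with a median deviation of 0.83 in mutant 3. None of these markers was at 0 in any sample, and 0 of either list were called by limma-trend, while 7 meningeal and 1 neuronal marker were higher at an unadjusted p under 0.05. With the replicate block 8 of the 10 meningeal markers were called higher. The part of either cell type in the astrocyte values was not tested.

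A further 30 genes typical of astrocytes, none of them among the 38, were read beside them. Of these 4 were called higher and 0 lower, 28 had a log2 fold change above 0, and their median was 0.31. Among the called genes were Gja1, the main gap junction protein of astrocytes, at 0.64, Aldoc, a glycolytic enzyme, at 0.63, and Hopx at 0.61 (adjusted p = 0.0214, 0.0199 and 0.0316, limma-trend). Gfap, the intermediate filament of astrocytes, was at 1520 ± 110.4 FPKM (SD, n = 4) in controls and 1956 ± 219.6 (SD, n = 3) in mutants and was not called (log2 fold change 0.36, adjusted p = 0.0953, limma-trend). Sox9, a transcription factor of astrocyte nuclei, had a log2 fold change of 0.26 (adjusted p = 0.397, limma-trend). With the replicate block 8 of the 30 were called higher, and without mutant 3 or any 1 of controls 1 to 3 the count was 0.

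Among the lists of other cells, OL markers had 3 of 15 genes called lower with a median log2 fold change of -0.22. At an unadjusted p under 0.05, 5 OL markers were lower and 1 was higher, and 2 of the 15 had a log2 fold change above 0. Markers of OPCs and newly formed OLs had 5 of 12 called lower with a median of -0.38. At an unadjusted p under 0.05, 9 of them were lower and 0 higher. Olig2, whose promoter drives Cre in the mutants, was 1 of the 5 called, and an effect of Cre on its RNA was not tested. Of 12 microglial, 12 endothelial and 10 mural markers 0 were called in either direction by limma-trend (3, 8 and 3 were higher at an unadjusted p under 0.05), with medians of 0.10, 0.32 and 0.20. With the replicate block 1 microglial, 4 endothelial and 3 mural markers were called higher, and 1 OL marker and 6 markers of OPCs and newly formed OLs were called lower. The medians of the 2 astrocyte lists, 0.45 and 0.31, thus stood beside 0.32 for endothelial and 0.62 for meningeal markers, and differences between lists were not tested.

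**Figure D4:**
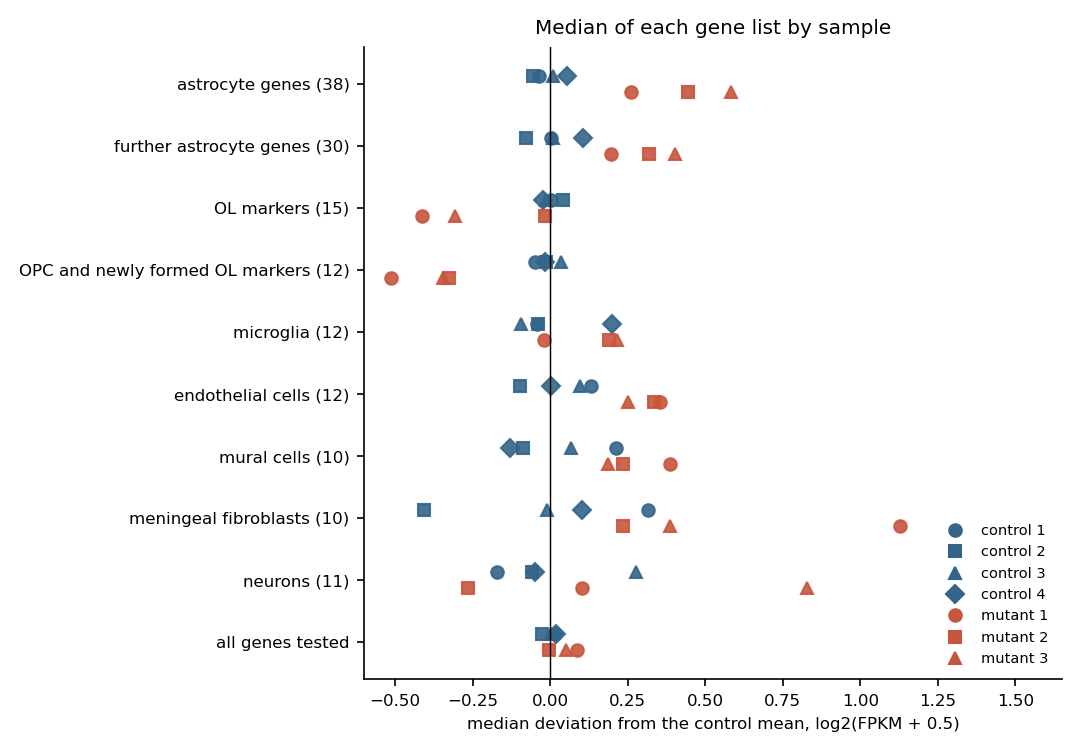
Median deviation from the control mean, in log2(FPKM + 0.5), of each list of genes (number of genes in brackets) in each of the 7 samples, controls in blue and mutants in red. The 38 astrocyte genes lie at 0.26, 0.44 and 0.58 in the mutants, the OPC list lies below the controls in every mutant, the OL list does so in mutants 1 and 3 but lies within the control range in mutant 2, and mutant 1 stands out for meningeal markers at 1.13 and mutant 3 for neuronal markers at 0.83.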

How the data were processed

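RNA of both optic nerves of each mouse was sequenced after poly-A selection with a stranded kit, in 4 control and 3 mutant mice at P14. According to the submitters' processing notes and the study's methods, the authors aligned reads to GRCm38 with STAR 2.5.1b, estimated gene levels with RSEM 1.2.22 and tested with edgeR. The authors deposited, for each sample, a normalized count (a signal per gene on a common scale) and an FPKM value. The table also holds the authors' own log2 ratios and p-values, which were not used. Whether counting used the strand is not given in the sources used here, so overlaps with coding and antisense genes are named. Overlaps of Cldn10, Fgfr3, Glul, Slc15a2, Slc1a3, Slc6a11 and Slc7a11 with small RNAs, processed pseudogenes or unconfirmed transcripts are not listed singly.

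The test was limma-trend (limma 3.58.1, R 4.3.3) on log2(FPKM + 0.5). Genes needed an FPKM of 0.5 or more in 3 or more samples, the model held genotype alone, and p-values of the 13866 genes were adjusted together by Benjamini-Hochberg, with a threshold of 0.05. Fold changes on this scale understate the change of low genes. The procedure was tested on simulated data. Low normalized counts came in steps, which gave the value of 1 read and so the depth, but only 78.8% to 83.6% of low values were whole within 0.1 read, so the planned count tests on recovered reads were not run. Replicates differed by more than counting error (median chi-square per gene 2.15 to 6.36 between samples of a group), so each was kept as a sample. Whether litters or batches differ is not stated, and p-values measure the spread between these mice. Samples of equal number in the labels deviated together from their group means, as their correlation over genes ran from 0.168 to 0.409 in 3 pairs, against -0.353 to 0.205 in 9 pairs of unequal numbers. Yet mutant 1 correlated at 0.205 with control 4, above its 0.168 with control 1. Deviations sum to 0 within a group, so the correlations cannot all have the same sign, and the check does not establish pairs. As an alternative that takes the numbers as pairs, the model was also run with a replicate block. Control 4 has no partner in that model and gets no weight in the genotype difference. The labels do not say what a number stands for.

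The members and the gene lists were chosen with earlier results of these data known, so their direction is not independent evidence. Values are given sample by sample for called members, the 6 members with the largest absolute log2 fold change, the 5 with the highest mean FPKM, Aldh1l1, Slc1a2, Slc1a3, Glul and Aqp4, and the 3 metallothioneins. Outside the members, Fasn, called genes of the further astrocyte list, Gfap, Gja1, Aldoc and Sox9 were named by rule, and some genes are not reported here. Single samples given for other members, the gene Olig2, and the genes that respond to glucocorticoids or metals, among them Hif3a, Nfkbia, Mtf1 and Slc30a1, were named after their values were seen. Promoters came from RefSeq (GRCm38.p6), and overlaps from GENCODE M21. Alternatives changed the pseudocount, the filter, the scale of the values and the samples.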

Additional observations from a re-analysis of the deposited data

Results flagged for a closer look

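In 4 of 39 control groups checked, 1 sample stood apart from the other 3 by Dixon's test, and chance flags about 1 in 20 groups. Control 4 was the highest control for Mlc1 at 188 FPKM, for Hepacam at 82.8 FPKM and for Agt at 248 FPKM. Control 2 was the lowest control for Papss2 at 2.73 FPKM. For Mlc1 and Papss2 every mutant sample still lay above every control.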

How the results depend on the processing

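Fasn kept its direction and its call in all 15 alternatives. The 38 astrocyte genes had a median log2 fold change of 0.37 to 0.45 under settings with genotype alone and all samples. It was 0.49 with the replicate block, which gives control 4 no weight, and 0.40 to 0.52 with 1 sample left out. Across the alternatives 34 to 38 of the genes were above 0. Their count of calls was 7 with limma-trend, 21 with the replicate block, 10 with a minimum of 2 FPKM (where Rorb was not tested), 5 with normalized counts or median-of-ratios scaling, 4 with FPKM rescaled to one sum per sample, 2 with no filter, and 0 to 12 with 1 sample left out. For all genes 363 calls became 1159 with the replicate block, 241 with the rescaling to one sum, 95 with no filter, and 6 to 907 with 1 sample left out. Calls of all genes were 175 higher and 188 lower, against 103 and 267 with normalized counts and 135 and 221 with median-of-ratios scaling, and the median of all genes was 0.05, -0.03 and 0.0055. For the further astrocyte genes 4 calls became 8 with the replicate block, 1 with no filter and 0 to 6 with 1 sample left out. The 24 astrocyte genes without overlap between groups became 16 with normalized counts, 18 with median-of-ratios scaling, 19 with the rescaling to one sum, and 24 to 31 with 1 sample left out. The share of all tested genes without overlap was not computed under these settings. Leaving out a sample can only make overlap rarer, so these counts cannot be judged against a background. With 1 sample left out, the median of the receptors and surface enzymes was 0.18 to 0.45 and that of the intracellular regulators 0.39 to 0.69. The sign turned for 4 genes near 0. Ttyh1 came to -0.023 and Tril to -0.065 with normalized counts, and Tril to -0.032 with median-of-ratios scaling. With 1 sample left out Aqp4 ran from -0.032 to 0.32, Ttyh1 from -0.0077 to 0.16, Tril from -0.057 to 0.097 and Mmd2 from -0.13 to 0.12, and the lowest value of each came without mutant 3. Among the called genes, Slc1a2 and Pla2g7 were lost with normalized counts, with median-of-ratios scaling and with the rescaling to one sum, and F3 with the last alone, and with no filter Slc1a2, F3, Aldh1l1, Cbs and Pla2g7 were lost. The replicate block changed no call of the 38 genes other than the 14 it added, and the causes of these changes were not tested. Count tests on recovered reads, which had been planned, were not run, since too few low values were whole reads. Depth limits the genes under 10 FPKM most.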

Other observations

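Genes that respond to glucocorticoids or to metals were read as a list of 11, since metallothioneins and Fam107a are known to respond to one or both. Of the 11, 1 was called higher and 0 lower, with a median log2 fold change of 0.18. The called gene was Hif3a, at 8.03 FPKM in controls and 11.1 in mutants (log2 fold change 0.45, adjusted p = 0.0415, limma-trend). Nfkbia had a log2 fold change of 0.46 (adjusted p = 0.0815, limma-trend). For Fkbp5, Tsc22d3, Per1, Plin4, Zbtb16, Pdk4 and Sgk1 the log2 fold changes were 0.38, 0.27, 0.18, 0.18, 0.15, 0.14 and 0.07. Their adjusted p ran from 0.192 to 0.846 (limma-trend). The metal-responsive factor Mtf1 and the zinc exporter Slc30a1 had log2 fold changes of -0.05 and 0.12 (adjusted p = 0.753 and 0.550, limma-trend).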
